A study of Mus musculus with 2 samples.

Results

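Genes that copy the genome in S phase and genes that separate it in mitosis were followed across the cells of a mouse liver suspension. The set holds 40 genes, taken by symbol from the 31053 genes of the count matrix: 16 S phase genes (Mcm2, Mcm3, Mcm4, Mcm5, Mcm6, Mcm7, Pcna, Rrm1, Rrm2, Tyms, Gins2, Cdc6, Cdt1, Uhrf1, Ccne2 and Dut), 21 mitotic genes (Mki67, Top2a, Birc5, Ccna2, Ccnb1, Ccnb2, Cdc20, Cdk1, Cenpa, Cenpe, Cenpf, Tpx2, Ube2c, Nusap1, Bub1, Bub1b, Aurka, Aurkb, Plk1, Kif11 and Kif23) and 3 genes that are abundant in dividing cells but also act outside division (Hmgb2, Stmn1 and Tubb5). Livers of mice aged 8 weeks were digested with collagenase IV, and a sorted suspension, labelled as immune cells, was profiled with 10x Genomics droplets, in which every captured transcript is tagged with the barcode of its droplet and a molecular identifier (UMI). The labels name 2 samples, 1 WT, described in the title as Rcrin flox, and 1 Rcrin KO, described as a liver conditional knockout; both carry the strain label RedMUC298trTg. The driver of the knockout, the sorting gate and the number of animals in each sample are not given in the sources used here.

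The matrix, gene list and barcode list labelled WT were identical to those labelled Rcrin KO, and 11192 of 11192 barcodes were shared. The files therefore hold 1 matrix of unknown genotype, and no value below is a comparison of genotypes. With 1 matrix there is no replicate error and no test. Levels are given as UMI per 1000000 UMI (CPM) with exact Poisson 95% intervals, shares of barcodes with exact Clopper-Pearson 95% intervals, and ratios with exact conditional 95% intervals; all of them cover counting error only. The matrix held 67037274 UMI. Barcodes under 500 UMI or 200 genes, or over 10% mitochondrial UMI, were dropped, which left 10366 with a median of 4343.5 UMI (508 to 93990). All 40 genes were detected, with 226 UMI for Bub1 at the lowest and 39124 UMI for Hmgb2 at the highest. Together they held 123131 UMI, or 0.191% of all UMI in kept barcodes, and Hmgb2, Stmn1 and Tubb5 held 50.7% of these.

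A barcode was assigned to a class from 19 panels of 8 marker genes, none of them a cell cycle gene, when at least 3 genes of the panel were detected. The gate placed 9537 barcodes (92.0%), left 628 as mixed because panels of 2 families were close, and left 201 without a class. Of the 628 mixed barcodes, 173 were also called doublets by Scrublet. B-like (3045 barcodes) and T-like (2352) classes were the largest, followed by endothelial-like (895), neutrophil-like (824), NK or ILC1-like (706), Kupffer-like (508), classical monocyte-like (347), nonclassical monocyte-like (294), plasmacytoid dendritic-like (pDC-like, 264), plasma-like (89), immature neutrophil-like (70), type 1 dendritic-like (cDC1-like, 51) and basophil-like barcodes (37). Under 30 barcodes each were Cd209a dendritic-like (22), myeloid progenitor-like (12), cholangiocyte-like (12), hepatocyte-like (7) and stellate-like (2). The 895 endothelial-like barcodes stand against the label of immune cells. The gate counts markers and so gives a range rather than a sharp type. At its limit lay 137 of 2352 T-like, 105 of 706 NK or ILC1-like, 15 of 89 plasma-like and 12 of 3045 B-like barcodes. Plasma-like barcodes held a median of 7 of 8 plasma and 3 of 8 B cell panel genes. Kupffer-like barcodes held 8 of their own and 4 of the nonclassical monocyte panel, and immature neutrophil-like barcodes 6 of their own and 7 of the neutrophil panel. In the other named classes the median number of genes from any other panel was 2.5 or lower.

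Before S phase, origins are licensed when Cdc6 and Cdt1 load the ring-shaped Mcm2 to Mcm7 helicase onto DNA, and the helicase is later completed by the Gins complex. E2F factors switch on these genes together with those that supply nucleotides. Genes of G2 and mitosis are held silent in resting cells by the DREAM complex, which binds a CHR element, often with CCAAT boxes for NF-Y nearby, and they are then activated through B-Myb and FoxM1. In a healthy liver most leukocytes are resting, mature neutrophils no longer divide, and Kupffer cells renew slowly in place.

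The promoters of the set carried these 2 kinds of word. RefSeq promoters (GRCm38.p6; 250 bases before and 50 after the start) were matched for 33 of the 40 genes, with 35 promoters in all. The E2F words TTCCCGC and TTGGCGC, read on both strands, were in 8 of 13 S phase genes (61.5%), in 3 of 18 mitotic genes (16.7%) and in 6.81% of all 32851 promoters of that length. The CHR word TTTGAA was in 1 of 13 S phase genes, in 13 of 18 mitotic genes (72.2%) and in 17.9% of all promoters. CCAAT was in 9 of 13 and 16 of 18 genes (88.9%), against 37.4% of all promoters, and CHR and CCAAT stood together in 13 of 18 mitotic genes, against 6.95%. Because the reverse of TTGGCGC ends in CCAA, that word and CCAAT can overlap, as in Ccnb1. A match describes letters in this window and shows no binding. The 250 bases before the start are shown 5′ to 3′ for 5 genes that show each pattern, with the words in capitals: E2F words and CCAAT in Mcm5 (chr8:75109259-75109508, + strand) and Uhrf1 (chr17:56303087-56303336, + strand, the first of its promoters), CHR and CCAAT in Ccnb2 (chr9:70421555-70421804, - strand), Cdc20 (chr4:118437344-118437593, - strand) and Top2a (chr11:99024190-99024439, - strand).
Mcm5: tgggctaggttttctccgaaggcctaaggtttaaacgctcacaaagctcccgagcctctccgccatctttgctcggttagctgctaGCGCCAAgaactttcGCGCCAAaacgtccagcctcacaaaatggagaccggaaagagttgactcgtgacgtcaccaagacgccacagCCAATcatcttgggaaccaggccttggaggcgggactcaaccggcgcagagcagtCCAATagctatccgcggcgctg
Uhrf1: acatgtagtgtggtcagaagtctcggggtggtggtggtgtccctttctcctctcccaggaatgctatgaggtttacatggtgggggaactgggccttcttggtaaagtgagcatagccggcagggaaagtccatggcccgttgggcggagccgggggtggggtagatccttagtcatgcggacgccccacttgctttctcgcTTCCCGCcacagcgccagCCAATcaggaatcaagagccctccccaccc
Ccnb2: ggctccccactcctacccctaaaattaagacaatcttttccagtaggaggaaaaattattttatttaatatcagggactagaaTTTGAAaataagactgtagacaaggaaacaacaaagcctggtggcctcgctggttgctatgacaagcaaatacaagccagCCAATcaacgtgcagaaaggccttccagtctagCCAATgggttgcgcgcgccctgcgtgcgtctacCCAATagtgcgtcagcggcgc
Cdc20: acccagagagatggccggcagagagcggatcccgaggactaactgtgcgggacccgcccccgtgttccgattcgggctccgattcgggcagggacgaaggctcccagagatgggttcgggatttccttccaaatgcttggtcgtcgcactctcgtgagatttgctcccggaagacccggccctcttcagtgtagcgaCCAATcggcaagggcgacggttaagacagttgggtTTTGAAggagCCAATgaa
Top2a: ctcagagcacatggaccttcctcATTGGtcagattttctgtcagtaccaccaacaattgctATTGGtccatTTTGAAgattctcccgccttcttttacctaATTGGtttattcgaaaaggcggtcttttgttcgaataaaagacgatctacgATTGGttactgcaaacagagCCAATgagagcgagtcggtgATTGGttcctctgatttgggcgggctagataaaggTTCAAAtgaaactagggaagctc

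Several mitotic genes were found together in few barcodes, and those few held most of the mitotic UMI. At least 1 UMI of an S phase gene was found in 71.0% of barcodes and at least 1 of a mitotic gene in 50.5%, but these shares follow depth: after thinning each barcode to 1000 UMI, which leaves out 153 shallower ones, they were 28.4% and 17.6%. Neutrophil-like barcodes, with a median of 2502.5 UMI, still had a mitotic UMI in 33.9% of cases (T-like 50.6% at a median of 4997 UMI), so a single UMI was not read as division. At least 3 mitotic members were found in 538 barcodes (5.19%, 4.77 to 5.63%), which had a median of 13917.5 UMI against 3732 in the 5134 barcodes with none. At least 5 were found in 264 barcodes (2.55%, 2.25 to 2.87%), with a median of 17028 UMI. After thinning, 139 barcodes (1.36%) kept at least 3 mitotic members and 156 (1.53%) at least 3 S phase members. Of the 264 barcodes with 5 or more mitotic members, Scrublet called 6 doublets (2.27%), against 3.27% of all kept barcodes. The marker gate left 38 of the 264 as mixed, against 628 of all 10366 (6.06%). These 264 barcodes held 7.61% of all UMI but 68.5% of the mitotic and 35.1% of the S phase UMI. They were chosen by the mitotic genes, so their high share of mitotic UMI follows in part from the choice. S phase genes took no part in it.

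Barcodes rich in mitotic genes were mostly rich in S phase genes too, while the reverse held less often. Of 288 barcodes with 8 or more S phase members, 154 also had 8 or more mitotic members, 91 had 2 to 7 and 43 had 0 or 1. Of 199 barcodes with 8 or more mitotic members, 154 had 8 or more S phase members, 43 had 2 to 7 and 2 had 0 or 1. The 154 barcodes rich in both had a median of 19403.5 UMI (5074 to 93990), and 3 of them were called doublets. By class, 71 were T-like (46.1%), 22 mixed, 18 plasma-like, 9 NK or ILC1-like, 7 cDC1-like, 6 myeloid progenitor-like, and 5 each B-like and Kupffer-like. Barcodes that were strong in replication genes and poor in mitotic genes thus existed, while the reverse was nearly absent at 8 or more members. S phase genes were also the more widespread, with a UMI in 71.0% of all barcodes against 50.5% for mitotic genes. The part of this and of depth in the difference was not tested.

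**Figure D1:**
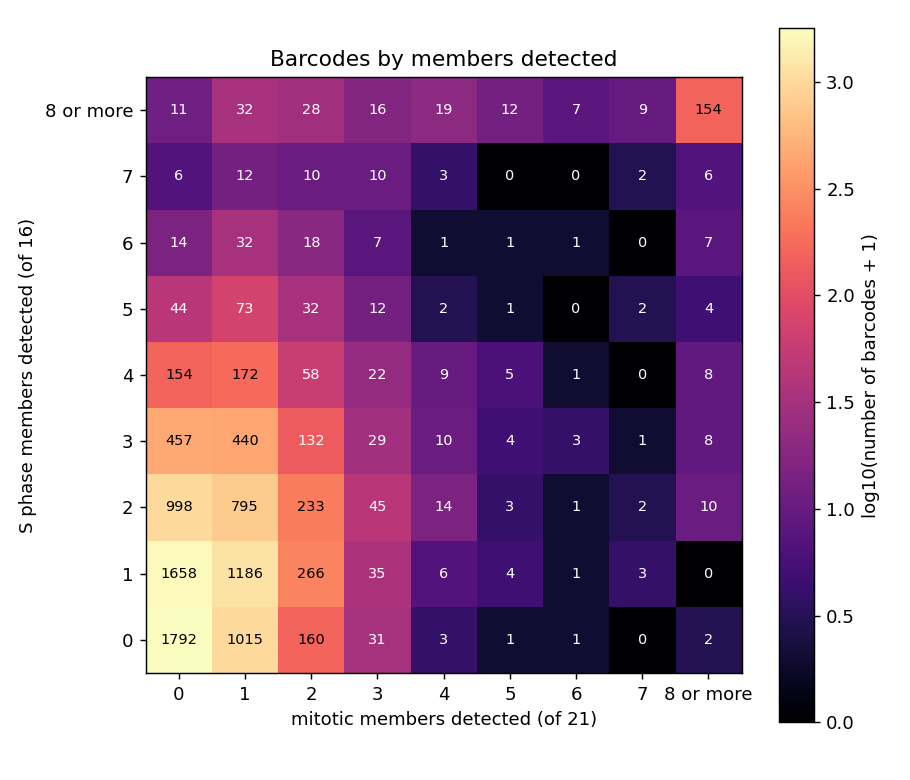
Number of kept barcodes by the number of S phase members (rows, of 16) and mitotic members (columns, of 21) detected; the last row and column hold 8 or more, and colour is log10 of the number plus 1. Most barcodes lie at the lower left, with 1792 at 0 and 0, and 154 lie at the upper right.

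Among the 13 classes with at least 30 barcodes, plasma-like and cDC1-like ones had the highest shares of barcodes with several mitotic genes, and T-like barcodes supplied the largest number. At least 5 mitotic members were found in 27 of 89 plasma-like barcodes (30.3%, 21.03 to 41.0%), 9 of 51 cDC1-like (17.6%, 8.40 to 30.9%), 117 of 2352 T-like (4.97%, 4.13 to 5.93%), 17 of 508 Kupffer-like (3.35%, 1.96 to 5.30%), 16 of 706 NK or ILC1-like (2.27%, 1.30 to 3.65%) and 10 of 3045 B-like barcodes (0.328%, 0.158 to 0.603%). None was found in 824 neutrophil-like barcodes, which allows a share of up to 0.364%, in 70 immature neutrophil-like (up to 4.29%), in 294 nonclassical monocyte-like (up to 1.02%) or in 37 basophil-like barcodes (up to 8.11%). Depth differed between these classes, from a median of 2502.5 UMI in neutrophil-like to 18655 in plasma-like barcodes. Thinned to 1000 UMI, the share with at least 3 mitotic members was 16.9% in plasma-like (15 barcodes), 11.8% in cDC1-like (6), 2.94% in T-like (69), 1.42% in NK or ILC1-like (10), 0.662% in Kupffer-like (3) and 0.0987% in B-like barcodes (3). The order of plasma-like, cDC1-like, T-like and B-like barcodes was the same on both measures. The intervals of plasma-like and cDC1-like barcodes overlapped on both (thinned, 9.75 to 26.3% and 4.44 to 23.9%), which does not set their order. The Kupffer-like share, at a median of 12986 UMI, was below that of NK or ILC1-like barcodes when thinned, with overlapping intervals. Sorting could set these shares, and its part was not tested.

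**Figure D2:**
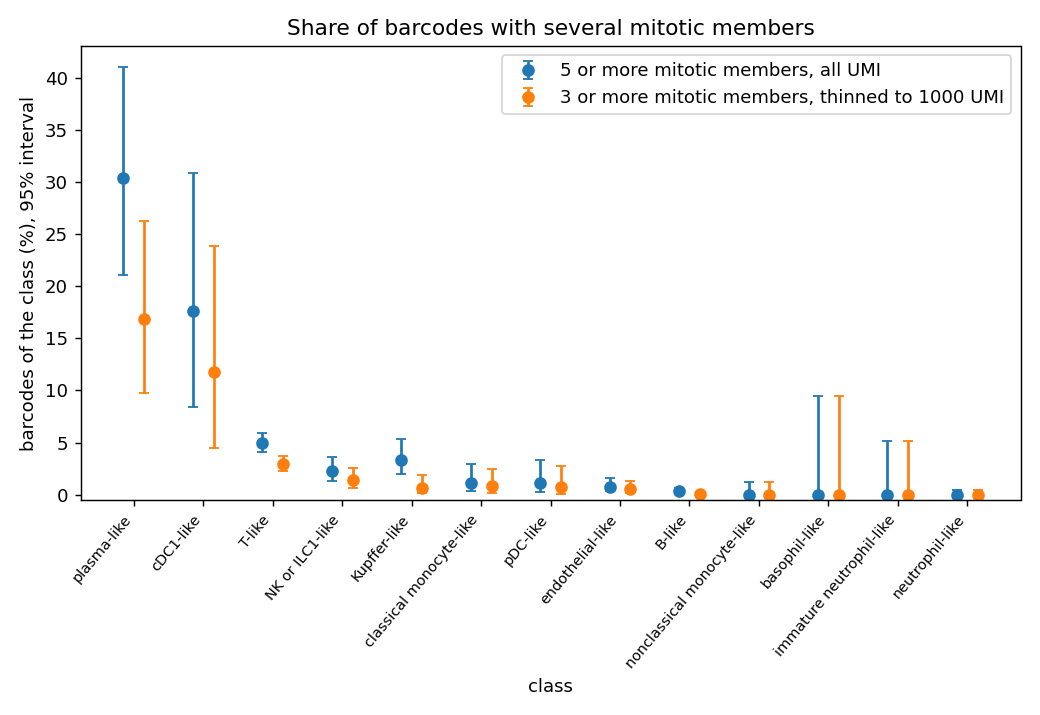
Percent of the barcodes of each class with 5 or more mitotic members at full depth (blue) and with 3 or more after thinning to 1000 UMI (orange); bars are exact 95% intervals. Plasma-like (30.3% and 16.9%) and cDC1-like (17.6% and 11.8%) barcodes lie above T-like ones (4.97% and 2.94%), and both neutrophil classes lie at 0.

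A class of 12 myeloid progenitor-like barcodes had the highest replication level in CPM. Its panel rests on Prtn3 (12 of 12 barcodes), Mpo and Kit (11 each), Cd34 (11), Ctsg (9) and Elane (7), genes of granulocyte and monocyte precursors and of stem cells. All 12 had at least 3 S phase members, and 7 had at least 5 mitotic members, at a median of 27329.5 UMI. Their summed S phase level was 2553 CPM (2389 to 2725), against 984 in cDC1-like and 749 in T-like barcodes, and their summed mitotic level was 1129 CPM (1021 to 1245). Stmn1, which encodes a protein that destabilises microtubules, reached 942 CPM there. With 12 barcodes this class was left out of the ranking of members, which used the 13 classes with at least 30 barcodes.

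Set against the other gated barcodes, the 40 genes were higher in 3 classes and lower in most others. At least 2-fold higher were 29 in cDC1-like barcodes (6.74% of the 13078 genes with at least 50 UMI were), 24 in plasma-like (5.31%), 23 in T-like (6.25%), 2 in NK or ILC1-like (5.17%), 2 in B-like (5.80%), 2 in neutrophil-like (7.94%), 1 in immature neutrophil-like (6.33%) and 1 in nonclassical monocyte-like barcodes (6.32%). None was higher in classical monocyte-like (6.50%), basophil-like (7.44%), pDC-like (7.68%), Kupffer-like (11.5%) or endothelial-like barcodes (20.8%). At least 2-fold lower were 37 in neutrophil-like (60.9%), 36 in immature neutrophil-like (66.6%), 34 in basophil-like (56.1%), 34 in nonclassical monocyte-like (30.5%), 26 in classical monocyte-like (28.1%), 24 in pDC-like (25.5%), 23 in B-like (27.0%), 22 in endothelial-like (20.8%) and 19 in Kupffer-like barcodes (25.9%), and 1 in cDC1-like ones (33.7%). None was lower in T-like (23.9%), NK or ILC1-like (21.4%) or plasma-like barcodes (42.1%). The counts in both neutrophil classes and in basophil-like barcodes stand beside a background of 56.1 to 66.6%. Several counts moved by over 1.5 times under other settings. The share over all genes was not computed under those settings, so the counts that follow have no background beside them. With at most 5% mitochondrial UMI the higher members were 15 in T-like, 0 in NK or ILC1-like, 0 in immature neutrophil-like, 1 in neutrophil-like, 0 in nonclassical monocyte-like and 3 in pDC-like barcodes, and the lower ones 0 in cDC1-like and 9 in pDC-like barcodes. With a pseudocount of 10 CPM in place of 1, the higher members were 15 in T-like and 0 in nonclassical monocyte-like barcodes. The lower ones were then 24 in neutrophil-like, 22 in nonclassical monocyte-like, 17 in basophil-like, 14 in B-like, 10 in endothelial-like, 9 in classical monocyte-like, 7 in Kupffer-like, 7 in pDC-like and 0 in cDC1-like barcodes.

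Among the 13 classes, S phase genes were mostly highest in cDC1-like barcodes. This held for 11 of 16 members; Rrm2 and Ccne2 were highest in plasma-like, Mcm4 in T-like, Mcm6 in NK or ILC1-like and Cdt1 in B-like barcodes. Against the other gated barcodes, 11 of 16 S phase members were at least 2-fold higher in cDC1-like (6.74% of all genes), 8 of 16 in T-like (6.25%), 4 in plasma-like (5.31%) and 1 in NK or ILC1-like barcodes (5.17%). None was higher in neutrophil-like barcodes (7.94%), where 16 of 16 were at least 2-fold lower (60.9%).

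Of the helicase subunits, Mcm6 had the most UMI (3203). It was measured at 114 CPM (102 to 126) in NK or ILC1-like, 104 (84.2 to 127) in cDC1-like, 102 in plasma-like and 89.3 in T-like barcodes, and at 4.12 CPM in neutrophil-like ones. The intervals of NK or ILC1-like, cDC1-like and plasma-like barcodes overlap, which does not set their order. Mcm3 (2822 UMI) was at 101 CPM in cDC1-like, 61.9 in T-like and 58.9 in endothelial-like barcodes, and Mcm7 at 81.4 CPM in cDC1-like and 49.8 in T-like ones. Mcm4 was level between T-like (59.4 CPM) and NK or ILC1-like barcodes (58.5; ratio 1.02, 0.87 to 1.20). Mcm7 overlaps Cops6 and Ap4m1 on the opposite strand, and Gins2, Ccne2, Ccna2, Cdc20, Ube2c and Nusap1 each overlap an opposite-strand gene too. The strand setting of the counting was not given in the sources used here, so reads of such pairs may not be told apart.

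Pcna, the sliding clamp of the DNA polymerases, was the most widespread S phase member and made up 21.5% of the S phase UMI. It was at 164 CPM in cDC1-like, 137 in T-like, 70.3 in B-like, 48.5 in neutrophil-like and 21.3 in immature neutrophil-like barcodes. Nonclassical monocyte-like (108 CPM) and endothelial-like barcodes (102), with few mitotic UMI, held nearly as much as NK or ILC1-like ones (120). Dut, which removes dUTP so that it is not built into DNA, was at 113 CPM in cDC1-like, 94.6 in T-like and 4.57 in neutrophil-like barcodes, with no UMI in immature neutrophil-like ones. Rrm1, the large subunit of ribonucleotide reductase, was at 61.0 CPM in cDC1-like and 48.2 in T-like barcodes, whose ratio of 1.27 (0.95 to 1.66) does not separate them. Its partner Rrm2, the subunit that limits the enzyme in S phase, was at 70.1 CPM in plasma-like, 31.2 in T-like and 3.03 in B-like barcodes. Ccne2, a cyclin of the G1/S transition, was at 15.2 CPM in plasma-like and 12.8 in cDC1-like barcodes (ratio 1.18, 0.58 to 2.57).

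Cdt1, the licensing factor, stood apart from the other S phase genes. It was highest in B-like barcodes, at 73.2 CPM (68.3 to 78.4), against 32.7 in T-like, 30.9 in NK or ILC1-like and 13.9 in cDC1-like barcodes, and made up 19.5% of the S phase UMI of B-like barcodes. The level in B-like barcodes was 73.3 CPM after the 10 B-like barcodes with 5 or more mitotic members were removed. Cdt1 (chr8:122568015-122573554, + strand) lies within the annotated gene Gm20388 on the same strand, which is itself in the count table, and reads of these 2 genes may have been split or discarded. A part of that overlap in the class pattern was not tested.

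Mitotic genes were mostly highest in plasma-like barcodes, in 18 of 21 members. The exceptions were Cenpa (B-like), Kif23 (neutrophil-like) and Aurka (cDC1-like). Kif11 (ratio 1.005, 0.72 to 1.41), Cdk1, Bub1b, Aurkb and Plk1 (1.82, 0.84 to 4.36) did not differ from cDC1-like barcodes beyond counting error. With a gate of 2 panel genes, Top2a, Cdk1, Bub1b, Aurkb and Kif11 were highest in cDC1-like barcodes. With at most 5% mitochondrial UMI, Bub1b, Aurkb and Kif11 were, and Cenpf was highest in pDC-like ones. Mki67, the proliferation marker that coats mitotic chromosomes, was at 543 CPM (508 to 579) in plasma-like, 216 in cDC1-like, 126 in T-like and 97.7 in NK or ILC1-like barcodes, against 13.2 in B-like and 3.20 in neutrophil-like ones. Top2a, which untangles replicated DNA, was at 290 CPM (265 to 316) in plasma-like, 226 in cDC1-like, 143 in T-like, 123 in NK or ILC1-like and 22.8 in B-like barcodes, with 1 UMI in all neutrophil-like barcodes. Among the classes named for both genes the order was the same, but it was not over all classes. Without barcodes with 5 or more mitotic members, Mki67 was at 33.9 CPM in Kupffer-like and 4.15 in B-like barcodes. Top2a was at 5.24 and 14.9 CPM there. Ube2c, which hands ubiquitin to the anaphase-promoting complex, was at 209 CPM in plasma-like, 83.5 in cDC1-like and 58.7 in T-like barcodes. Cdc20, which activates that complex, was more uneven, at 58.4 CPM in plasma-like against 10.6 in T-like barcodes (ratio 5.53, 4.24 to 7.19).

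Birc5, the survivin subunit of the chromosomal passenger complex, was at 105 CPM in plasma-like, 55.2 in T-like and 54.6 in cDC1-like barcodes. Cenpf, a kinetochore protein, was at 109 CPM in plasma-like, 64.2 in cDC1-like and 40.2 in T-like barcodes, and Nusap1, which bundles spindle microtubules, at 98.1, 47.1 and 34.0 CPM. In B-like barcodes these 3 genes were between 2.40 and 3.74 CPM. Aurka, the kinase of spindle poles, had 327 UMI, and its levels of 20.3 CPM in cDC1-like and 15.8 in plasma-like barcodes did not differ beyond counting error (ratio 1.29, 0.68 to 2.41). Of the 21 mitotic members, 19 were at least 2-fold higher in plasma-like barcodes (5.31% of all genes), 17 in cDC1-like (6.74%) and 13 in T-like ones (6.25%), and 17 were at least 2-fold lower in B-like barcodes (27.0%).

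**Figure D3:**
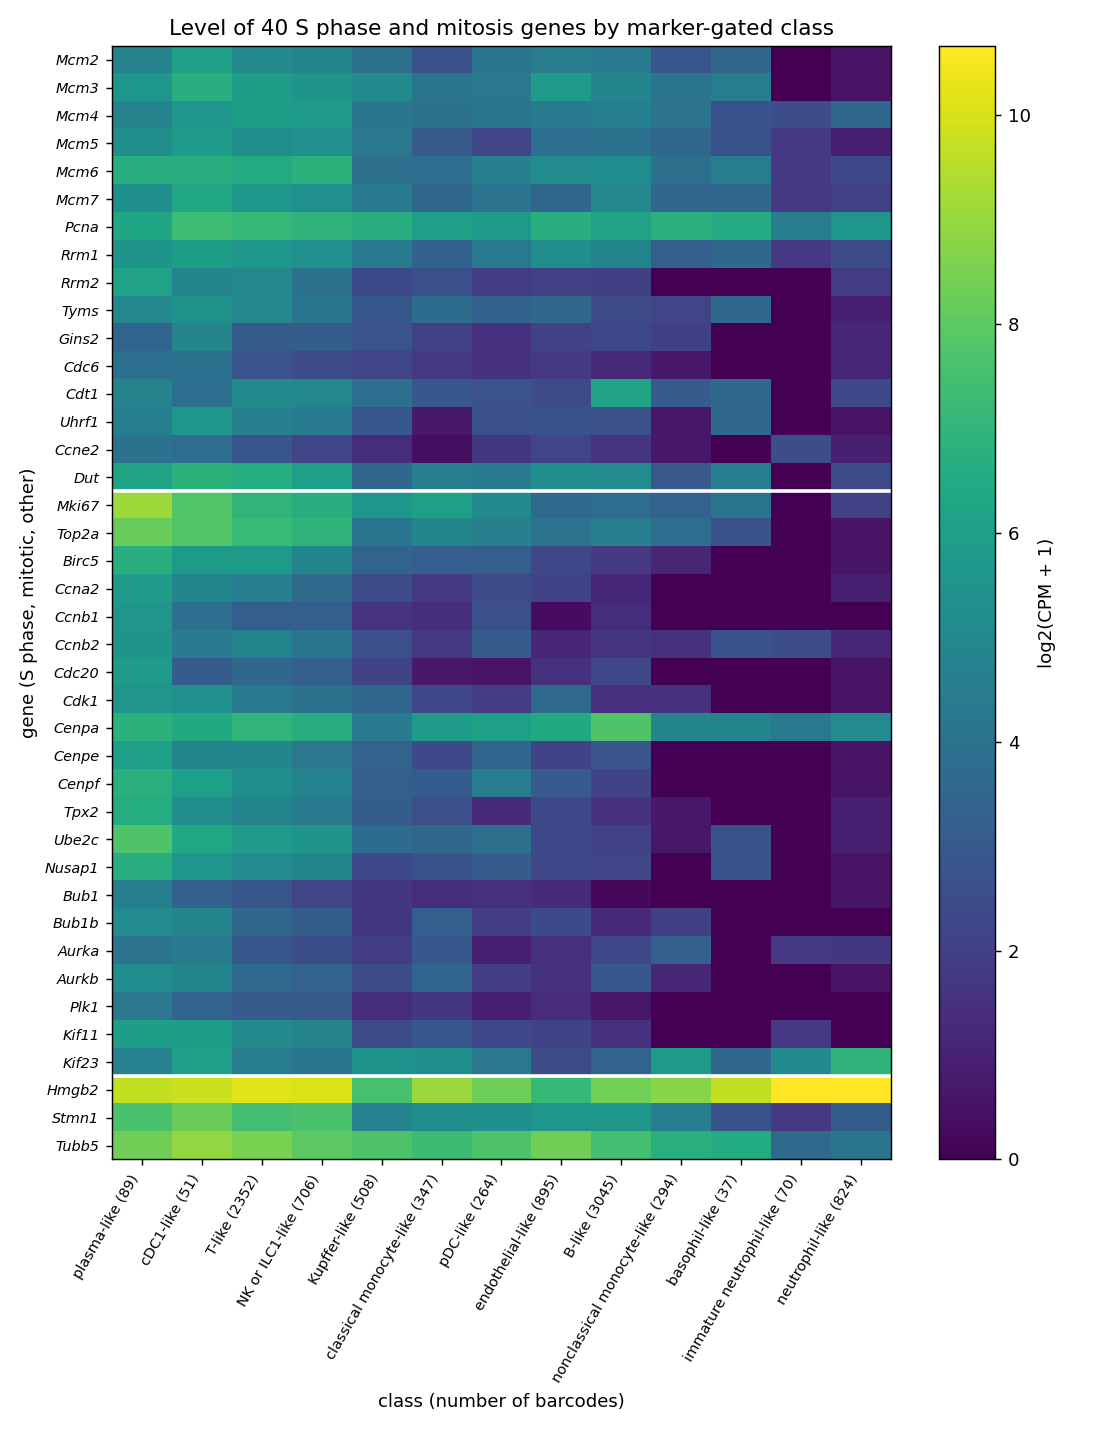
Level of each of the 40 genes, as log2 of CPM plus 1, in the 13 classes with at least 30 barcodes. White lines part the S phase, mitotic and other members. Classes are in a fixed order that starts with plasma-like, cDC1-like, T-like and NK or ILC1-like ones, the highest in summed mitotic level. The later classes are not ordered by that level. The mitotic block is brightest at the left, while Cenpa in B-like, Kif23 in neutrophil-like and Hmgb2 in both neutrophil classes break this pattern.

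Most mitotic UMI of these classes lay in few barcodes. The 27 plasma-like barcodes with 5 or more mitotic members held 96.5% of that class's mitotic UMI and 41.6% of all its UMI; the summed mitotic level was 2093 CPM (2025 to 2163) with them and 124 (103 to 148) without. In cDC1-like barcodes it was 1177 CPM with 9 such barcodes and 135 without, in T-like 823 and 171, and in NK or ILC1-like 624 and 149. That the mitotic sums were lower without these barcodes is fixed by the choice. The mitotic sum was also taken less Cenpa, Kif23, Mki67 and Top2a. With all barcodes of a class it was 1119 CPM in plasma-like, 581 in cDC1-like and 409 in T-like barcodes. Without barcodes with 5 or more mitotic members it was 48.8 CPM in cDC1-like, 32.6 in classical monocyte-like and 31.9 in T-like barcodes. It was then 25.9 CPM in B-like, 14.0 in plasma-like and 10.1 in neutrophil-like barcodes. Without the same barcodes the S phase sum was 534 CPM in cDC1-like, 507 in NK or ILC1-like, 455 in T-like, 346 in B-like, 335 in endothelial-like and 165 in plasma-like barcodes.

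With the 264 barcodes left out, 11 members were at least 2-fold higher in cDC1-like barcodes (6.19% of all genes), among them Uhrf1 (22.9 against 3.45 CPM), Gins2 and Mcm2. In T-like barcodes 7 were above 2-fold (5.83%), and in plasma-like ones 3 (3.44%): Mki67 at 78.0 CPM, Ccne2 at 10.99 and Rrm2 at 5.002. In NK or ILC1-like barcodes there were 4 (5.57%): Mcm6 at 107 CPM, Stmn1, Mcm4 and Mcm5. Neutrophil-like (7.89%), immature neutrophil-like (6.36%) and nonclassical monocyte-like barcodes (6.21%) had 2 each, with Kif23 or Hmgb2 among them. Lower by at least 2-fold were 18 in plasma-like (52.3%), 22 in neutrophil-like (60.2%) and 29 in immature neutrophil-like barcodes (65.8%). Kupffer-like and classical monocyte-like barcodes had 3 of 40 members higher each. This is below the share over all genes in Kupffer-like (11.5%) and near it in classical monocyte-like barcodes (6.51%). These 2 counts thus do not set the members apart from other genes. Mki67 was among the higher members in both, at 33.9 and 43.0 CPM against 14.3 in T-like barcodes. Gins2, Mcm2, Stmn1, Mcm5 and Uhrf1 are named here after their values were seen.

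Each member was then read in barcodes chosen without it: those with at least 3 other mitotic members against those with none. All but Cdt1 and Cenpa, 38 of 40, were at least 2-fold higher there (5.81% of all genes were, with all 21 mitotic genes choosing), and 23 of 40 at least 10-fold. The share of all genes at 10-fold was not computed. The median ratio was 70.1 over the mitotic members (1.90 for Cenpa to 277 for Cenpf) and 6.01 over the S phase members (1.57 for Cdt1 to 56.7 for Rrm2). Since the barcodes with 3 or more mitotic members were deeper and came from other classes in part, the comparison was repeated within T-like barcodes. For members outside the mitotic group it set 185 barcodes with 3 or more mitotic members (median 10238 UMI) against 1163 with none (4617 UMI). For mitotic members the sets varied with the gene left out, as for Cenpa with 145 against 1659. In T-like barcodes 40 of 40 members were at least 2-fold higher (8.91% of all genes were, with all 21 mitotic genes choosing). The medians were 81.0 over mitotic and 7.68 over S phase members.

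Among the mitotic genes, Cenpf (149 against 0.537 CPM; ratio 277, 162 to 523) and Birc5 (164 against 0.745; 220, 139 to 372) were nearly absent from barcodes with no other mitotic gene, and so was the cyclin Ccna2 (261, 126 to 652). Nusap1 (161) and Ube2c (112, 82.6 to 155) followed. Mki67 was at 523 against 10.6 CPM (49.6, 43.8 to 56.2) and Top2a at 472 against 11.2 CPM (42.0, 37.2 to 47.5), so these 2 abundant markers were not the ones with the largest ratios. The B-type cyclins and their kinase, which drive entry into mitosis, had ratios of 93.2 for Ccnb2, 58.6 for Ccnb1 and 20.9 for Cdk1, and Cdc20 one of 30.3 (20.8 to 45.7). Top2a, Ccnb2 and Cdc20 are the genes whose promoters are shown above with CHR words. The spindle motors and regulators Kif11, Tpx2 and Cenpe lay between 74.6 and 87.0, and the kinases Plk1, Bub1, Bub1b and Aurkb between 21.8 and 151. Within T-like barcodes Mki67 reached 92.6 (69.5 to 126) and Top2a 46.8 (38.5 to 57.4). At the lower end were Aurka (6.30, 4.74 to 8.44), Kif23 (3.47, 3.10 to 3.89) and Cenpa (198 against 104 CPM; 1.90, 1.78 to 2.02), whose ratios within T-like barcodes were 6.03, 9.47 and 3.42. The share of a gene's UMI lying in barcodes with 3 or more other mitotic members had a median of 91.2% over mitotic members, and was 20.7% for Cenpa, 34.1% for Kif23, 83.5% for Mki67 and 97.4% for Ccna2 and Bub1.

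S phase genes differed less and spread more. Rrm2 (87.2 against 1.54 CPM; ratio 56.7, 40.8 to 81.2), Uhrf1, which recruits the maintenance DNA methyltransferase to replicated DNA (31.2, 23.6 to 42.1), and Cdc6 (25.8, 16.2 to 43.2) had ratios in the range of mitotic genes. Tyms, which makes thymidylate, was at 10.2, Ccne2 at 9.39 and Gins2 at 8.11. The helicase subunits lay together between 3.16 for Mcm4 and 8.02 for Mcm5, with Mcm3 at 5.30, Mcm7 at 5.13 and Mcm6 at 3.67. Dut (176 against 26.7 CPM; 6.57) and Rrm1 (5.45) were of that order, and Pcna (201 against 82.4 CPM; 2.43, 2.28 to 2.60) and Cdt1 (42.4 against 27.0 CPM; 1.57, 1.38 to 1.79) were lowest. The 2 subunits of ribonucleotide reductase differed in barcodes without mitotic genes, with Rrm1 at 20.3 CPM and Rrm2 at 1.54.

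**Figure D4:**
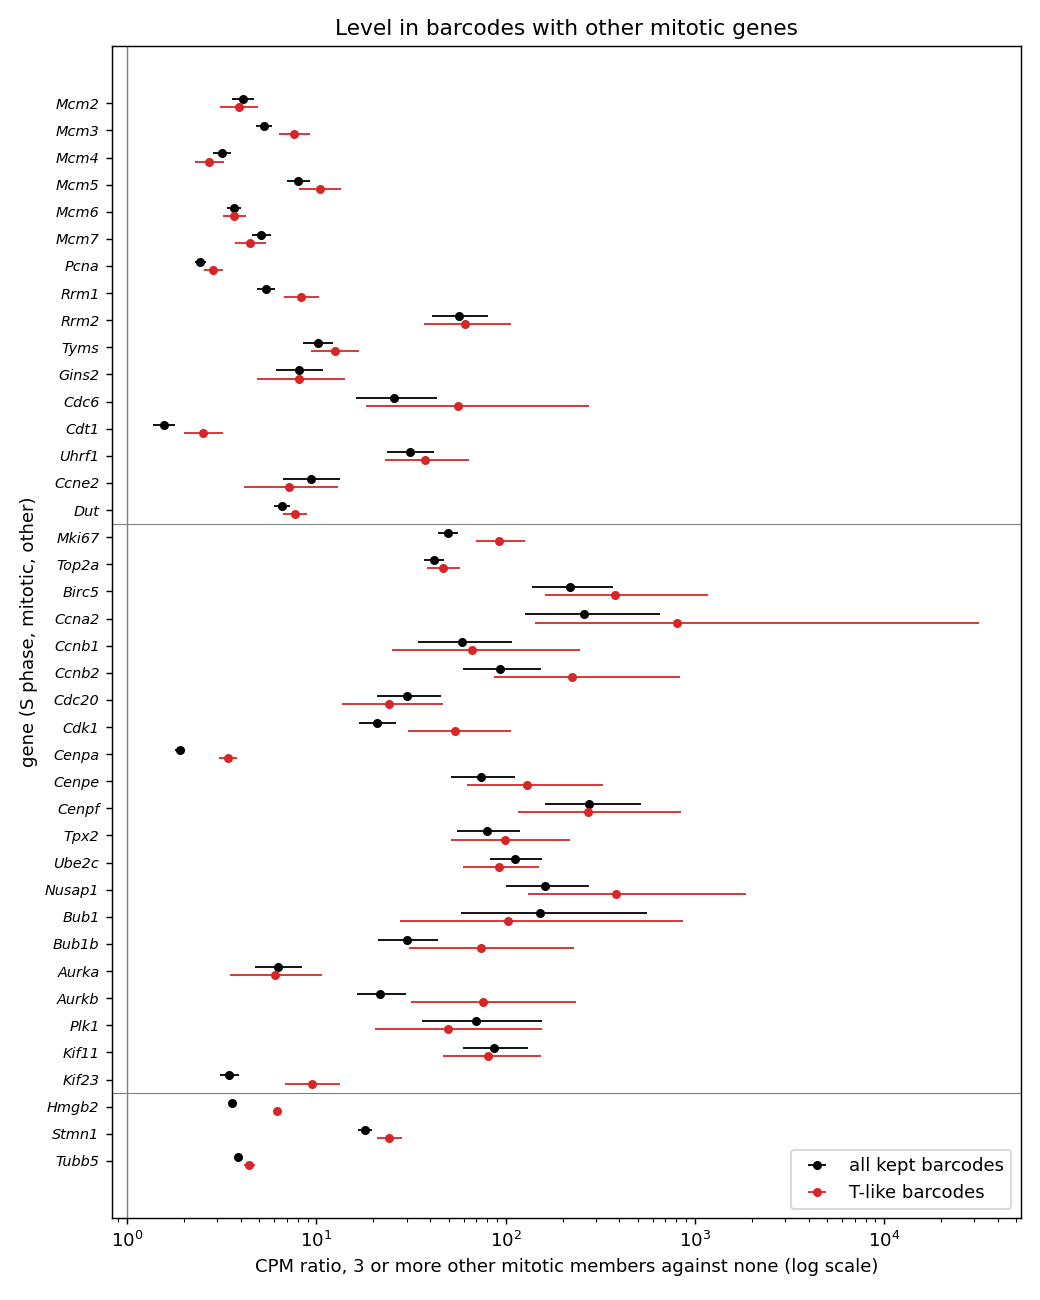
Ratio of CPM on a log axis, for each of the 40 genes, in barcodes with 3 or more other mitotic members against barcodes with none, over all kept barcodes (black) and T-like barcodes (red), with exact 95% intervals. Mitotic genes lie mostly above 20, except Cenpa (1.90), Kif23 (3.47) and Aurka (6.30), and S phase genes mostly between 3.16 and 10.2.

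The 2 groups also were found together when only 1 of them chose the barcodes. In barcodes with at least 3 mitotic members, 15 of 16 S phase members were at least 2-fold higher than in barcodes with none (5.81% of all genes were), and within T-like barcodes 16 of 16 (8.91%). In 2101 barcodes with at least 3 S phase members (median 8032 UMI) against 3005 with none (3126 UMI), 19 of 21 mitotic members were at least 2-fold higher (11.1% of all genes), and within T-like barcodes 20 of 21 (5.95%). Top2a was at 171 against 9.38 CPM in that comparison (18.2, 15.02 to 22.2) and Mki67 at 174 against 10.7 (16.2, 13.6 to 19.6). The 2 that were not were Cenpa (109 against 102 CPM; ratio 1.06, 0.99 to 1.14) and Kif23 (36.1 against 34.2; 1.05, 0.93 to 1.19). Within T-like barcodes Kif23 was at 35.0 against 9.15 CPM (3.82, 2.26 to 6.97), while Cenpa remained at 1.35 (1.16 to 1.59).

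Cenpa, the histone H3 variant that marks centromeres, was mostly found without the other mitotic genes. Of 3455 barcodes with a Cenpa UMI, 2399 (69.4%) had no other mitotic member, and in B-like barcodes 1114 of 1340 (83.1%). B-like barcodes were at 208 CPM (200 to 217), against 124 in T-like, 116 in plasma-like, 87.1 in endothelial-like and 20.8 in Kupffer-like barcodes. It made up 69.6% of the mitotic UMI of B-like barcodes, so a single mitotic UMI there was in most cases Cenpa, and the B-like level stayed at 208 CPM without the 10 barcodes with 5 or more mitotic members. Kif23, a kinesin of the central spindle that is needed for cytokinesis, was highest in neutrophil-like barcodes, at 121 CPM (107 to 136), against 64.2 in cDC1-like, 54.6 in nonclassical monocyte-like and 21.6 in T-like barcodes. Of 207 neutrophil-like barcodes with a Kif23 UMI, 182 (87.9%) had no other mitotic member, and Kif23 was 71.5% of the mitotic UMI of that class. No other annotated gene overlaps Cenpa (chr5:30666777-30674830, + strand) or Kif23 (chr9:61915905-61946774, - strand) in GENCODE M21 on GRCm38.

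For the other 19 mitotic genes the share of barcodes with no other mitotic member ran from 2.48% (3 of 121) for Bub1, the spindle checkpoint kinase, to 30.7% (231 of 753) for Top2a. It was 3.68% (7 of 190) for Ccna2, 6.59% (18 of 273) for Birc5, 17.5% for Aurkb, 22.5% for Cdk1, 22.5% (170 of 754) for Mki67 and 27.0% for Aurka. In Kupffer-like barcodes Mki67 was alone in 34 of 107 and in classical monocyte-like ones in 20 of 59, and in cDC1-like ones in 0 of 15.

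Hmgb2, Stmn1 and Tubb5 split in a similar way. Hmgb2, a DNA-bending chromatin protein, was highest in immature neutrophil-like (1618 CPM, 1499 to 1743) and neutrophil-like barcodes (1610, 1558 to 1664), which did not differ (ratio 1.004, 0.92 to 1.09) and held no barcode with 3 or more mitotic members. T-like (1143 CPM) and NK or ILC1-like barcodes (1071) followed, and endothelial-like ones were at 141. It was 3.59-fold higher in barcodes with at least 3 mitotic members over all classes and 6.19-fold within T-like ones, at 3787 against 612 CPM. Stmn1 was at 309 CPM in cDC1-like, 195 in NK or ILC1-like, 193 in plasma-like and 7.78 in neutrophil-like barcodes, and its ratio between barcodes with at least 3 mitotic members and those with none was 18.1 (16.7 to 19.6). Tubb5, a beta-tubulin, was at 494 CPM in cDC1-like, 369 in T-like and 321 in endothelial-like barcodes, and at 3.87-fold in barcodes with mitotic genes.

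Barcodes with replication genes but few mitotic genes were set beside those with both. In 312 barcodes with at least 5 S phase and at most 2 mitotic members (median 11369.5 UMI), Mcm2 was at 62.5 CPM, Mcm6 at 97.5 and Pcna at 129, against 101, 222 and 313 CPM in 206 barcodes with at least 5 of each (19046.5 UMI). Rrm2 was at 5.07 against 171 CPM, Cdc6 at 5.07 against 38.0 and Uhrf1 at 20.3 against 131. Hmgb2 was at 334 against 2883 CPM and Stmn1 at 83.9 against 947. Hmgb2 and Stmn1 took no part in choosing these sets. The S phase and mitotic values of the sets were fixed in part by the choice, since both sets needed at least 5 S phase members. The sets were not matched by class. Ccnd1 was at 247 against 112 CPM in them. In T-like barcodes it was at 5.83 CPM with at least 3 mitotic members and 1.95 with none. The part of class in the Hmgb2 and Stmn1 values was not tested.

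Other cell cycle genes were read in the same comparison, at least 3 mitotic members against none. Of 106 genes in 5 lists, 82 were at least 2-fold higher (5.81% of all genes) and 1 at least 2-fold lower (4.30%). Of 31 other S phase genes 28 were higher and none lower (median log2 ratio 2.498; 0.02 over all genes), led by the repressor E2f8 (3.75), the histone chaperone subunit Chaf1a (3.48) and the checkpoint adaptor Clspn (3.44), with the polymerase subunit Pold1 at 0.32. Of 42 other mitotic genes 39 were higher and none lower (median 3.31), led by the spindle protein Hmmr (5.66), Cdca3 (5.44), which promotes entry into mitosis, and the kinetochore subunit Spc24 (4.80). Securin, Pttg1, was the least different, at 45.3 against 47.5 CPM.

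A list of 14 histone and chromatin genes, which also holds the tubulins Tuba1b and Tubb4b and the transport GTPase Ran, had 12 of 14 higher (median 1.90). Hist1h1b, a linker histone gene, was at 357 against 3.20 CPM (log2 ratio 6.41), Hist1h2ae at 209 against 3.32 (5.60) and Hist1h3c at 55.4 against 0.208 (5.55). Lmnb1 was level over all classes (226 against 210 CPM) but at 413 against 57.7 CPM within T-like barcodes. In a list of 9 genes of G1, cyclins and kinases with Myc, Rb1 and E2f4, 2 were higher, the kinases Cdk6 (1.24) and Cdk4 (1.07), Cdk2 was at 0.94, and the cyclin Ccnd3 was at 116 against 176 CPM (-0.60). Of 10 genes that restrain the cycle 1 was higher, the CDK4/6 inhibitor Cdkn2c (26.9 against 6.94 CPM; 1.81), and 1 lower, the antiproliferative gene Btg1 (741 against 2121 CPM; -1.52). Cdkn1a (194 against 181 CPM) and Cdkn2d (52.8 against 53.9) were level over all classes. Within T-like barcodes the counts were 30 of 31, 40 of 42, 14 of 14, 3 of 9 and 3 of 10 higher in the order of these lists, 90 in all (8.91%), with 1 of 9 and 1 of 10 lower. The share of all genes that were lower within T-like barcodes was not computed, so those 2 counts have no background beside them.

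**Figure D5:**
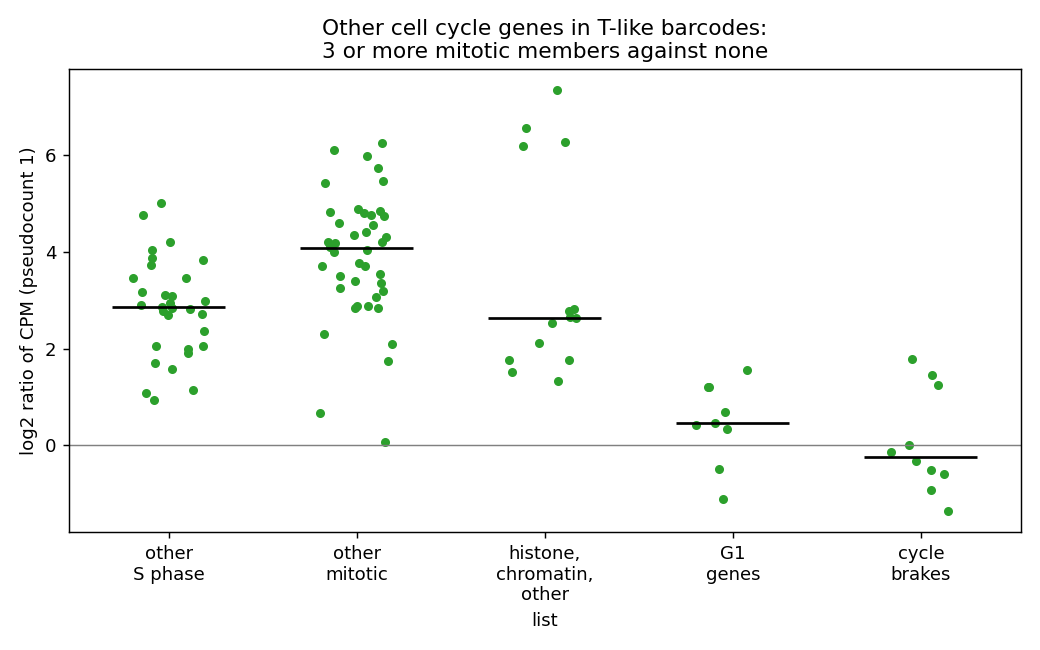
Log2 ratio of CPM (pseudocount 1 CPM) of the 106 other cell cycle genes in T-like barcodes with 3 or more mitotic members against those with none; each point is a gene and each bar the median of its list (2.85, 4.07, 2.64, 0.47 and -0.23). The first 3 medians (other S phase, other mitotic, and histone and chromatin genes with 2 tubulins and Ran) lie above 0, and those of the G1 and brake lists lie nearer to it.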

How the data were processed

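The 2 deposited samples of mouse liver immune cells were read, and their files were identical, so they were used once. The authors deposited raw UMI counts, whole numbers without scaling. The submitters' processing notes name mm10, Seurat 2.3.4, STAR and Cell Ranger 2.1.1, whereas software 3.0.0 wrote the matrix, per the file headers. How cells were called was not given in the sources used here. Free RNA could not be read from empty droplets.

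From these counts, Python 3.11.15 with numpy 2.4.6, scipy 1.17.1 and pandas 2.3.3 computed the following. Barcodes were filtered and gated as described. A panel won with at least 3 of 8 genes and 2 more than any panel of another family. Hepatocyte-like needed 6. Within 3 families a set rule replaced the larger count. Between T and NK or ILC1, at least 3 T genes made a barcode T-like. Between B and plasma, at least 3 plasma genes made it plasma-like. Between the 2 neutrophil panels, at least 3 immature genes, Chil3 left out, made it immature neutrophil-like. Doublets called with Scrublet in scanpy 1.11.5 (339 of 10366) were kept and left out only as an alternative. UMI were summed per class or barcode set and divided by the total as CPM. A gene was called past 2-fold on log2 of CPM with a pseudocount of 1 CPM, which understates changes of low genes, among genes with at least 50 UMI. Shares with 0 barcodes are limited by 3 counts. Thinning drew 1000 UMI per barcode with a fixed seed. The code was tested on simulated data.

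The 40 genes, the other lists and the panels were chosen with earlier results of these data known. Members given in full are, for the S phase and mitotic groups, the 8 with the most UMI, then Hmgb2, Stmn1 and Tubb5, and any member with a highest class unlike that of its group; of the other lists, the 3 genes with the largest and the 1 with the smallest ratio. Any other gene with values was chosen after these were seen. Alternatives covered filters, doublets, thinning, gate, pseudocount, CPM total, minimum count and the number of members that choose barcodes; those within T-like barcodes or chosen after thinning were added after seeing the data.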

Additional observations from a re-analysis of the deposited data

How the results depend on the processing

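The counts of S phase members (14 to 16 of 16) and mitotic members (16 to 20 of 21) at 2-fold or more in barcodes chosen by the other group stayed within 1.5 times the reported 15 and 19 under every filter, pseudocount and choice of barcodes tried. The highest class was the same for 33 of 40 members with a gate of 2 panel genes, 37 with a gate of 4 and 39 without doublets. With at most 5% mitochondrial UMI it changed for Cenpf, Bub1b, Aurkb, Kif11 and Hmgb2. Shares moved with depth: thinned to 1000 UMI they were 28.4% (at least 1 S phase UMI), 17.6% (1 mitotic UMI), 1.53% (3 S phase members) and 1.36% (3 mitotic members). With at most 5% mitochondrial UMI the shares were 68.2% with an S phase UMI, 49.4% with a mitotic UMI and 6.32% with 3 mitotic members, and the members 2-fold higher were 15 in T-like, 0 in NK or ILC1-like, 0 in immature neutrophil-like, 1 in neutrophil-like, 0 in nonclassical monocyte-like and 3 in pDC-like barcodes; those lower were 0 in cDC1-like and 9 in pDC-like ones. With a pseudocount of 10 CPM, which shrinks ratios of low genes, 15 were higher in T-like and 0 in nonclassical monocyte-like barcodes, and the lower ones were 14 in B-like, 7 in Kupffer-like, 17 in basophil-like, 0 in cDC1-like, 9 in classical monocyte-like, 10 in endothelial-like, 24 in neutrophil-like, 22 in nonclassical monocyte-like and 7 in pDC-like barcodes. Under both of these settings the share over all genes was not computed, so the counts of members have no background beside them. The cause of the shift under the mitochondrial limit was not tested. No paired analysis was possible because the files of both genotypes are 1 matrix.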
